A study of Mus musculus with 15 samples.

Results

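Antiviral interferon effector genes were followed in 2 mouse tumour lines whose expression of Ssbp4, a gene of the single-stranded DNA binding protein family, had been changed. The group holds 10 genes listed by symbol, with no measured value in the rule, although the list was drawn up with earlier results of these data known: Ifit1, Ifit2, Ifit3, Isg15, Usp18, Rsad2, Mx1, Ifi44, Bst2 and Rtp4. All 10 have an entry in both deposited tables, which list 54343 genes for MC38 and 55303 for B16-F10. MC38, a colon adenocarcinoma line that the tissue label calls melanoma, was measured in 4 wild-type libraries and in 3 libraries of cells transduced with a retroviral vector that carries Ssbp4 cDNA and an EGFP reporter. B16-F10, a melanoma line, was measured in 4 libraries of cells electroporated with Cas9 and a control guide RNA to an intergenic site, labelled wild type, and in 4 libraries of cells electroporated with Cas9 and a mixture of guides against Ssbp4, labelled knockout. No MC38 group with an empty vector is named in the labels, nor a clone of either line, so in MC38 the vector, the transduction and Ssbp4 itself cannot be told apart. Separate cultures are not stated for replicate libraries, and every p-value therefore measures only how far these libraries spread, which may be technical.

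Type I interferon, made when a cell senses foreign nucleic acid, binds its receptor and activates the kinases Jak1 and Tyk2, and a complex of transcription factors then binds interferon-stimulated response elements in promoters. The proteins made from those promoters block viruses at several steps: IFIT proteins bind viral RNA or hold back translation, Isg15 is a ubiquitin-like modifier, Rsad2 (viperin) makes a chain-terminating nucleotide, Mx1 is a dynamin-like GTPase, and Bst2 (tetherin) holds budding virions at the cell surface. Usp18 removes Isg15 from proteins and dampens signalling at the interferon receptor. Many tumour lines keep a low, continuous output of these genes without infection.

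The promoters of 5 of the 10 genes are shown because each holds the core letters of the response element just before the transcription start. RefSeq start sites on GRCm38.p6 were found for 7 of the genes, and not for Usp18, Mx1 and Rtp4. The 250 bases before each start were searched on both strands for GAAANNGAAA, where N is any base and matches may overlap, which reads TTTCNNTTTC when it lies on the other strand. Capitals mark every match, and the last base printed is the one before the start.
Isg15: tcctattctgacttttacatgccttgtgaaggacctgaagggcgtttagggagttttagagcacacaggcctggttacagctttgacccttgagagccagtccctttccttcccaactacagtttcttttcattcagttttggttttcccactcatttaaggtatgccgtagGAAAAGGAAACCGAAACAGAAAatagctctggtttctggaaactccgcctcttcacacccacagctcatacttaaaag
Ifit1: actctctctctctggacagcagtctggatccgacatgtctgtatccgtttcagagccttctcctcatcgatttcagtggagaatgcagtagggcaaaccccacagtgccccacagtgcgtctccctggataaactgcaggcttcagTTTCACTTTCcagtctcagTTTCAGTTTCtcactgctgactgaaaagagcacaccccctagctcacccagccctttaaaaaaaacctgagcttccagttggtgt
Ifit3: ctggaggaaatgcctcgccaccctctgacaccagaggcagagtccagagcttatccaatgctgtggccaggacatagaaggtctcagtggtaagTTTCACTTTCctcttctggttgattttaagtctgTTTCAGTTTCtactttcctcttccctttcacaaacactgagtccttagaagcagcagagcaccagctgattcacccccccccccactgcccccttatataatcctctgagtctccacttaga
Rsad2: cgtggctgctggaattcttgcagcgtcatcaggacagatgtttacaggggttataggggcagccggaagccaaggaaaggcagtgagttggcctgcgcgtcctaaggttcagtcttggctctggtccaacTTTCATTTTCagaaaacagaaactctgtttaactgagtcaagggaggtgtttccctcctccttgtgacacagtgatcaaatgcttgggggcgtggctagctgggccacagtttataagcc
Bst2: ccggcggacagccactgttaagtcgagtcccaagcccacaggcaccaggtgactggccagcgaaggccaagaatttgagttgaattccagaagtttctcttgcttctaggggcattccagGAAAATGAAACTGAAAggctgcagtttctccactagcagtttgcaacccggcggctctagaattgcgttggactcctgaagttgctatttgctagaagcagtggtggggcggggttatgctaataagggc

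These windows are chr4:156200819-156201068 on the minus strand for Isg15, chr19:34640639-34640888 on the plus strand for Ifit1, chr19:34583279-34583528 on the plus strand for Ifit3, chr12:26456453-26456702 on the minus strand for Rsad2 and chr8:71537473-71537722 on the minus strand for Bst2. Isg15 has 3 overlapping matches, which span bases 78 to 57 before the start, and Bst2 has 2 overlapping matches, which span bases 130 to 115. Ifit1 has 2 separate matches on the opposite strand, the first at bases 104 to 95 and the second at bases 85 to 76. Ifit3 carries the same pair of words in the same order, at bases 156 to 147 and 122 to 113, and Rsad2 has 1 match at bases 120 to 111. The window of Ifi44 and both windows of Ifit2 hold no match, which says only that these letters are not in those bases. Of all 32851 RefSeq promoter windows of this length, 2.98% hold a match. A match is a description of the sequence and was not tested for binding.

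FPKM counts fragments per kilobase of gene length and per M sequenced fragments. Its smallest steps put MC38 libraries at a depth of 32.5 to 38.4 M fragments and B16-F10 libraries at 32.5 to 48.8 M. Ssbp4 followed the labels, at 13.2 to 17.6 FPKM in wild-type and 462 to 581 FPKM in overexpressing MC38, and at 32.4 to 37.4 FPKM in control and 19.0 to 24.3 FPKM in knockout-labelled B16-F10, so that in B16-F10 the transcript was 0.641 of its control level and not absent. All 6 melanocyte markers were above 1 FPKM on average in B16-F10, and in MC38 their sum was 0.902 to 2.09 FPKM. In MC38 the intestinal epithelial transcription factor Cdx2 was at 0 in every library. Wild-type B16-F10 libraries 1 and 2 stood apart from 3 and 4, with a root mean square difference of 0.289 to 0.299 (log2(FPKM + 1), tested genes) across those pairs, against 0.136 between 1 and 2 and 0.147 between 3 and 4.

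In MC38 all 10 antiviral effector genes were higher in every overexpressing library than in every wild-type library. Of all genes above 0 in any MC38 library, 15.4% showed that arrangement. The ratio of group means ran from 1.38 for Ifit2 to 15.4 for Ifit3, with a median of 7.96, and was at least 5 for 7 of the genes. All of those except Rtp4 averaged under 1 FPKM in wild type, where a ratio rests on a small denominator. The share of all genes with such a ratio was not counted. Summed over the 10 genes, expression in wild-type cells was 96.3 ± 7.67 FPKM (SD, n = 4), and in overexpressing cells it was 220 ± 10.4 FPKM (SD, n = 3). Bst2 made up 72.8% of that sum in wild-type and 56.2% in overexpressing cells.

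**Figure D1:**
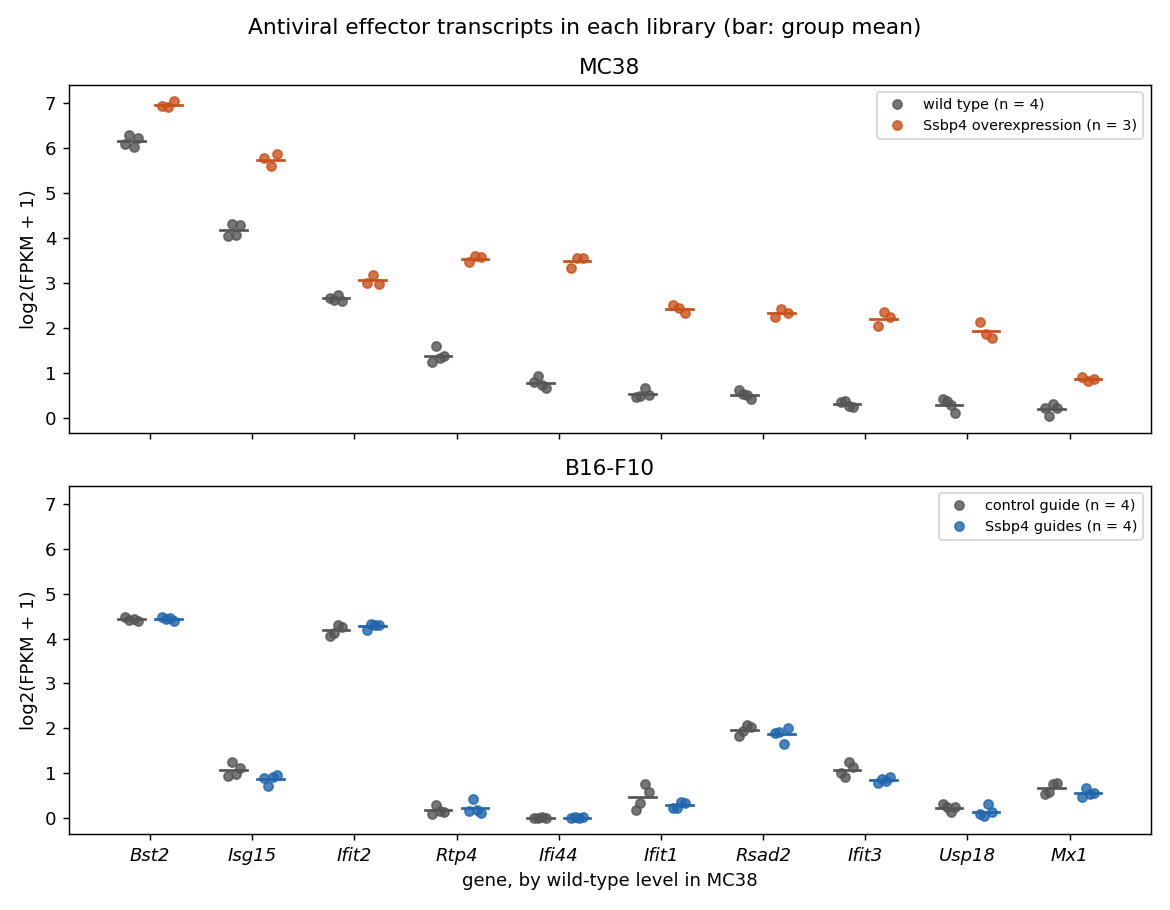
Expression of the 10 genes as log2(FPKM + 1) in each library, MC38 above and B16-F10 below, with 1 point per library, a horizontal bar at each group mean, and genes ordered by their wild-type level in MC38. In MC38 the overexpressing points lie above the wild-type points for all 10 genes, and in B16-F10 the 2 groups overlap for all 10.

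The 3 IFIT genes, which encode RNA-binding proteins with tetratricopeptide repeats, differed in level and in size of change. Ifit1, which recognises the 5′ end of foreign mRNA, stood at 0.384, 0.393, 0.567 and 0.427 FPKM in the wild-type MC38 libraries and at 4.64, 4.41 and 4.02 FPKM in the overexpressing ones. Its lowest overexpressing library was thus far above its highest wild-type library, and the log2 fold change was 1.89 (SE 0.08, limma adjusted p = 5.32e-08). Fold changes here and below are differences of log2(FPKM + 1), which understate the change of low genes, and p-values are adjusted by the Benjamini-Hochberg method over all tested genes. Genes were tested where their mean over the line was at least 1 FPKM. Ifit1, Ifit3, Usp18, Rsad2 and Ifi44 reached that only through the overexpressing group, so their adjusted p-values are descriptions. Without any limit on low values the limma adjusted p was 1.56e-05 for Ifit1, 2.68e-05 for Ifit3 and 8.44e-06 for Ifi44. For Rsad2 and Usp18 the highest limma adjusted p under any alternative was 3.80e-05 and 6.65e-04.

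Ifit3, a partner that stabilises IFIT complexes, stood at 0.276, 0.299, 0.193 and 0.176 FPKM in wild type and at 3.09, 4.07 and 3.72 FPKM in overexpressing cells. Its log2 fold change was 1.90 (SE 0.09, limma adjusted p = 1.35e-07), and as a ratio of means it was the largest of the group. Ifit3 shares 51.2% of its 50-base words with its neighbour Ifit3b, so how reads were split between them is uncertain; Ifit3b itself stood at 0.0158 FPKM in wild type and 1.01 FPKM in overexpressing cells. Ifit2, an IFIT protein linked to apoptosis as well as to viral RNA, stood at 5.30, 5.17, 5.57 and 5.06 FPKM in wild type and at 7.00, 8.06 and 6.82 FPKM in overexpressing cells. It was the highest IFIT gene in wild-type cells and had the smallest rise of the 10 genes, a log2 fold change of 0.40 (SE 0.07, limma adjusted p = 6.83e-04), and it shared no 50-base word with another gene.

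The modifier and its protease also rose. Isg15 stood at 15.5, 18.8, 15.6 and 18.5 FPKM in wild type and at 53.3, 47.1 and 57.0 FPKM in overexpressing cells, which gives a log2 fold change of 1.56 (SE 0.08, limma adjusted p = 2.56e-07). Usp18 stood at 0.334, 0.295, 0.213 and 0.0692 FPKM in wild type and at 3.34, 2.64 and 2.42 FPKM in overexpressing cells. The wild-type values of Usp18 rest on about 6 to 35 fragments per library, and its log2 fold change was 1.63 (SE 0.11, limma adjusted p = 1.48e-06). Isg15 therefore began far above Usp18, and the ratio of means was 3.07 for Isg15 and 12.3 for Usp18.

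Of the enzymes, Rsad2 stood at 0.533, 0.448, 0.414 and 0.324 FPKM in wild type and at 3.69, 4.37 and 3.99 FPKM in overexpressing cells, which gives a log2 fold change of 1.81 (SE 0.08, limma adjusted p = 9.38e-08). Mx1 stood at 0.151, 0.0290, 0.226 and 0.169 FPKM in wild type and at 0.860, 0.759 and 0.801 FPKM in overexpressing cells. Its groups did not overlap either, but its mean over the line was under 1 FPKM, the level below which genes were not tested. With that limit lowered to 0.1 FPKM, where 20.3% of genes rose and 18.4% fell, the log2 fold change of Mx1 was 0.66 (SE 0.08, limma adjusted p = 1.11e-04), from about 4 to 29 fragments per wild-type library. Many inbred mouse strains carry a truncated Mx1 allele that makes no functional protein.

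Bst2, a membrane-anchored surface protein, was the most abundant of the genes, at 66.6, 76.8, 63.7 and 73.2 FPKM in wild type and at 121, 119 and 131 FPKM in overexpressing cells. All 3 overexpressing libraries lay above the wild-type ones, with a log2 fold change of 0.81 (SE 0.06, limma adjusted p = 4.34e-06). In FPKM rather than in fold, Bst2 gained most, 53.4 FPKM, followed by Isg15 with 35.4 FPKM.

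Ifi44, a cytoplasmic protein of less settled function, stood at 0.720, 0.896, 0.657 and 0.569 FPKM in wild type and at 9.11, 10.8 and 10.7 FPKM in overexpressing cells. Its log2 fold change of 2.71 (SE 0.09, limma adjusted p = 7.63e-09) ranked 9 among the 10748 tested genes. Ifi44 joined those genes only through the overexpressing group, so its rank is a description. Rtp4, a chaperone of membrane receptors that also acts against viruses, stood at 1.37, 2.00, 1.50 and 1.59 FPKM in wild type and at 9.97, 11.0 and 10.9 FPKM in overexpressing cells, which gives a log2 fold change of 2.16 (SE 0.09, limma adjusted p = 3.56e-08). Rtp4 overlaps Masp1, on the opposite strand, and Gm45338 in the annotation, and 11.6% of its 50-base words occur in Gm45338, so part of its signal could belong to a neighbour. Ranks elsewhere in the group ran from 24 for Rtp4 to 246 for Bst2 and 930 for Ifit2.

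Of the 10 genes 9 had a mean of at least 1 FPKM in MC38 and were tested, and 9 rose and 0 fell, where 23.9% of all tested genes rose and 23.6% fell. That count cannot be read as it stands, since 5 of them, Ifit1, Ifit3, Usp18, Rsad2 and Ifi44, reached the limit only through the overexpressing group. With the limit set on the wild-type mean alone, 4 were tested and 4 rose, namely Ifit2, Isg15, Bst2 and Rtp4, where 22.9% of 10651 genes rose and 24% fell. Without any limit all 10 were tested and 10 rose, where 11.5% of 23483 genes rose and 9.47% fell, the highest adjusted p in limma being 0.00475, for Ifit2. The median log2 fold change of the 10 genes without a limit was 1.72, and that of all genes 6.28e-04.

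**Figure D2:**
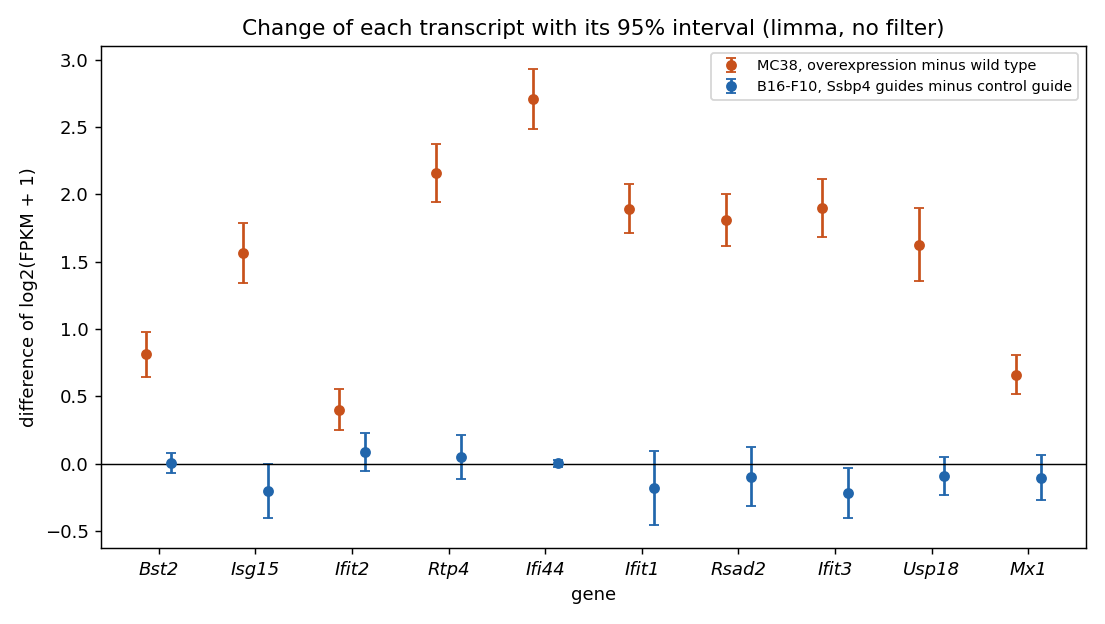
Difference of log2(FPKM + 1) between altered and wild-type libraries for each of the 10 genes, with 95% intervals from limma without a limit on low values, in MC38 (orange) and B16-F10 (blue). All MC38 intervals lie above 0, from Ifit2 at 0.40 to Ifi44 at 2.71, and all B16-F10 points lie between -0.22 and 0.09.

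Other transcripts moved in the same MC38 libraries. The summed level of 4 fibroblast markers was 81.6 to 87.1 FPKM in wild-type and 383 to 391 FPKM in overexpressing libraries, with Dcn, a matrix proteoglycan, at 65.6 and 320 FPKM and Pdgfra, a growth factor receptor, at 17.6 and 66.1 FPKM, while Col1a1 stayed at 0.178 FPKM or less on average. Of 8 intestinal epithelial markers the sum was 6.68 to 8.86 FPKM and then 8.96 to 10.8 FPKM, but its members went different ways. Krt8 stood at 3.22 FPKM in wild-type and 9.45 FPKM in overexpressing cells, its partner keratin Krt18 at 3.23 and 0.0607 FPKM, Epcam at 0.846 and 0 FPKM, Cdh1 at 0.306 and 0.0333 FPKM and Krt19 at 0.170 and 0.0055 FPKM. Of 10 leukocyte markers 6 were at 0 in wild-type and 5 in overexpressing libraries, and the sum, 2.06 to 2.86 and 3.05 to 4.16 FPKM, was nearly all Cd68, with Ptprc at 0.0104 FPKM or less on average. The 4 endothelial markers summed to at most 0.287 FPKM. Changed cell makeup and changed RNA per cell cannot be told apart in bulk RNA, and the part of the fibroblast and epithelial genes in the interferon result was not tested.

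The size of the MC38 change was set against the starting level. In wild-type MC38 the order ran Bst2, Isg15, Ifit2, Rtp4, Ifi44, Ifit1, Rsad2, Ifit3, Usp18 and Mx1. The library ranges of neighbours overlapped only between Ifit1 and Rsad2, between Ifit3 and Usp18 and between Usp18 and Mx1. In overexpressing cells Rtp4 and Ifi44 stood above Ifit2, which they had stood below in wild type.

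Across the 10 genes the ratio of means was lower where the wild-type level was higher, with a Spearman rho of -0.60. The 3 most abundant genes in wild type, Bst2, Isg15 and Ifit2, had the 3 smallest ratios, at 1.76, 3.07 and 1.38, whereas Mx1, the least abundant, had a ratio of only 5.62. The wild-type level is also the denominator of the ratio, which by itself pulls the relation downward. On the log2(FPKM + 1) scale the rho was -0.13, a scale on which adding 1 shrinks the change of the lowest genes, and with 0.1 added in place of 1 it was -0.56. Set instead against the wild-type B16-F10 level, which shares no library with the MC38 change, rho was -0.56 for the ratio and -0.66 for the log2 fold change. The gain in FPKM ran the other way, with a rho of 0.73 against the MC38 wild-type level. These values describe 10 genes, which are not replicates, and levels were measured in tables that were normalised separately.

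**Figure D3:**
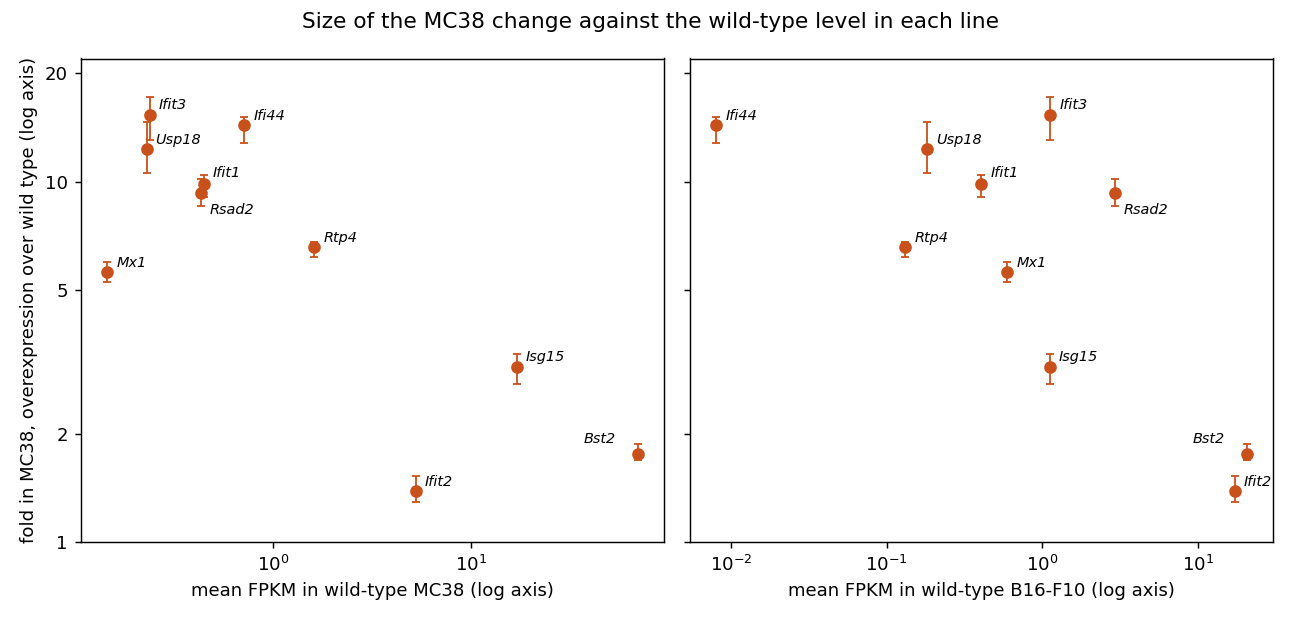
Ratio of mean FPKM in overexpressing over wild-type MC38 (log axis) for each of the 10 genes, against its mean FPKM in wild-type MC38 on the left and in wild-type B16-F10 on the right (log axes). Bars span the 3 overexpressing libraries, each over the wild-type mean; Bst2 and Ifit2 sit lowest, at 1.76 and 1.38, and both are the most abundant genes in B16-F10.

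The rest of the pathway was described from lists that share no gene with the 10, beside 23.9% of all tested MC38 genes that rose and 23.6% that fell. Of 7 other IFIT and Isg15 pathway genes 4 were tested and all 4 rose, led by Ube2l6, the Isg15-conjugating enzyme, from 7.11 to 15.1 FPKM, and Herc6, the ligase of the mouse pathway, from 3.98 to 6.71 FPKM. Of 9 OAS and RNase L genes, which sense double-stranded RNA and cut RNA, 4 were tested and 4 rose, among them Oas3, from 0.484 to 4.10 FPKM, and Oasl2, from 3.10 to 12.6 FPKM. Of 31 further interferon-stimulated genes 27 were tested, 26 rose and 0 fell. Ifi27 rose from 13.8 to 53.2 FPKM and Cmpk2, a mitochondrial nucleotide kinase that lies beside Rsad2, from 0.603 to 4.04 FPKM. The median log2 fold changes of these lists were 0.52, 1.72 and 0.65, and that of all tested genes was -0.0088. Some listed genes, Oas3 and Cmpk2 among them, reached the limit only through the overexpressing group. With the limit on the wild-type mean, where 22.9% of genes rose and 24% fell, 3 of 3 other IFIT and Isg15 pathway genes, 1 of 1 OAS and RNase L genes and 23 of 24 further interferon-stimulated genes rose.

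Upstream genes moved less uniformly. Of 10 genes of the type I receptor and its signalling all were tested, 6 rose and 1 fell, with a median of 0.36. Of all tested MC38 genes 23.9% rose and 23.6% fell. Irf7, the interferon-induced regulator of interferon genes, rose from 0.432 to 2.70 FPKM and Stat2 from 2.04 to 6.32 FPKM, whereas the receptor chain Ifnar2 fell from 14.6 to 11.5 FPKM. Irf7 reached the limit only through the overexpressing group. With the limit on the wild-type mean 5 of 9 rose and 1 fell, where 22.9% of all tested genes rose and 24% fell. Of 10 nucleic acid sensors and adaptors 6 rose and 1 fell, with a median of 0.60. Zbp1, a sensor of Z-form nucleic acid, rose from 0.263 to 3.16 FPKM and Dhx58, a regulator of RNA sensing, from 0.928 to 3.58 FPKM, while Irf3, which acts below the sensors, fell from 15.9 to 12.8 FPKM. Zbp1 and Dhx58 also reached the limit only through the overexpressing group, and with the limit on the wild-type mean 4 of 8 sensors and adaptors rose and 1 fell. Of 9 genes that respond mainly to interferon gamma or form its receptor 2 were tested and 1 rose, Ifngr2, by 0.16 (SE 0.06, limma adjusted p = 0.0372), which did not pass without a limit on low values (adjusted p = 0.0661) or without any 1 of wild-type libraries 1, 3 and 4 and overexpressing libraries 1 and 2 (adjusted p = 0.0554 to 0.157). Interferon transcripts themselves stayed near 0: 7 of 10 were at 0 in every MC38 library, and the highest value of the rest was 0.185 FPKM, for Ifne in a wild-type library. Ifnb1 averaged 0.0269 FPKM in wild-type and 0.0255 FPKM in overexpressing cells.

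**Figure D4:**
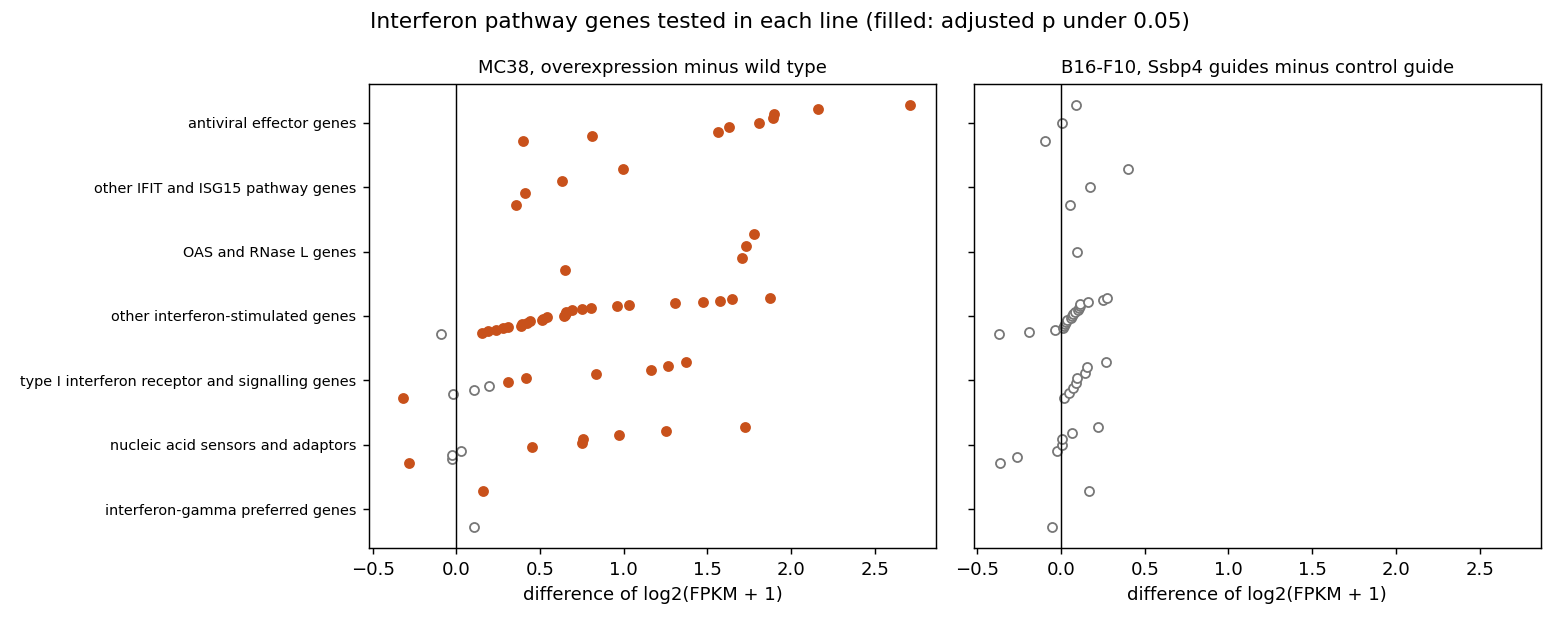
Difference of log2(FPKM + 1) for every tested gene of 7 interferon pathway lists in MC38 (left) and B16-F10 (right), 1 point per gene, filled where the limma adjusted p was under 0.05. In MC38 most points are filled and lie above 0, and in B16-F10 no point is filled.

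In B16-F10 none of the 10 genes passed a test of knockout-labelled against control cells. The groups overlapped for all 10, where 8.08% of genes above 0 in any library had groups that did not overlap. Means were higher in knockout-labelled cells for 4 genes and lower for 6. The sum over the 10 genes was 44.3 ± 1.95 FPKM (SD, n = 4) in control and 44.3 ± 0.703 FPKM (SD, n = 4) in knockout-labelled cells. Bst2 made up 46.4% of that sum in each group, and Ifit2 averaged 17.3 and 18.4 FPKM, so the sum says little about the other genes.

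Only Bst2, Ifit2 and Rsad2 reached a mean of 1 FPKM over all 8 B16-F10 libraries. In limma 0 of the 3 rose and 0 fell, where 1.33% of 10902 tested genes rose and 0.899% fell. An unadjusted p under 0.05 was reached by 0 of the 3, and by 2325 of the 10902 genes. Bst2 stood at 21.3, 20.3, 20.7 and 19.9 FPKM in control and at 21.1, 20.6, 20.8 and 19.8 FPKM in knockout-labelled libraries. Its log2 difference was 0.0030 (95% interval -0.09 to 0.10, limma adjusted p = 0.978), an interval that excludes a change as large as its 0.81 in MC38. The alterations of Ssbp4 itself differ in direction and size between the lines, so these changes of Bst2 are not like for like. Ssbp4 averaged 16.3 FPKM in wild-type and 534 FPKM in overexpressing MC38, and 34.5 and 22.1 FPKM in control and knockout-labelled B16-F10. Ifit2 stood at 15.8, 16.5, 18.8 and 18.0 FPKM and at 17.2, 19.0, 18.8 and 18.7 FPKM, with a log2 difference of 0.09 (95% interval -0.05 to 0.23, limma adjusted p = 0.453). Rsad2 stood at 2.58, 2.83, 3.20 and 3.06 FPKM and at 2.71, 2.77, 2.17 and 3.03 FPKM, with a log2 difference of -0.10 (95% interval -0.30 to 0.10, limma adjusted p = 0.580). The intervals of all 3 include 0, which does not show that the levels were equal. Of all called B16-F10 genes 59.7% were higher in knockout-labelled cells, and 73.1% after rescaling to a common total or 42.9% with median-of-ratios factors.

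The other 7 genes were low in B16-F10. Without a limit on low values all 10 could be tested, and 0 rose and 0 fell, where 0.142% of 23264 genes rose and 0.172% fell. An unadjusted p under 0.05 in limma was reached by 1 of the 10, and by 3087 of the 23264 genes. Among the 10 it was Ifit3, at 1.00, 0.899, 1.39 and 1.20 FPKM in control and at 0.739, 0.848, 0.792 and 0.901 FPKM in knockout-labelled libraries. Its groups overlapped by the margin between 0.899 and 0.901 FPKM, and its log2 difference was -0.22 (95% interval -0.40 to -0.03, limma adjusted p = 0.291). Isg15 stood at 0.929, 1.37, 0.975 and 1.18 FPKM and at 0.867, 0.637, 0.893 and 0.945 FPKM, with a log2 difference of -0.20 (95% interval -0.40 to 0.0011, limma adjusted p = 0.381). With a limit of 0.1 FPKM 9 were tested and 0 rose or fell, where 0.497% rose and 0.483% fell. At that limit 2 of the 9, Ifit3 and Isg15, had an unadjusted p under 0.05 in limma, as had 2689 of all 14288 genes. With the limit on the wild-type mean 5 were tested and 0 rose or fell, where 1.34% rose and 0.926% fell. Both Ifit3 and Isg15 had most control libraries above most knockout-labelled ones without passing.

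Ifit1 stood in control libraries at 0.146, 0.266, 0.709 and 0.496 FPKM, and in knockout-labelled cells at 0.170, 0.177, 0.280 and 0.269 FPKM. Control libraries 3 and 4, which stand apart over all genes, were both above libraries 1 and 2 for Ifit1, Ifit2, Ifit3, Rsad2 and Mx1, and both below them for 0 of the 10 genes. How many of all genes had that arrangement was not counted, so it does not set these genes apart. The knockout-labelled Ifit1 values lay within the range of the control ones. Mx1 stood at 0.455, 0.505, 0.688 and 0.731 FPKM in control and at 0.390, 0.610, 0.456 and 0.479 FPKM in knockout-labelled cells, and Usp18 stayed at or below 0.251 FPKM in every library. Rtp4 was at or below 0.343 FPKM in every library.

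Ifi44 was listed at 0 in 2 of 4 control libraries and 1 of 4 knockout-labelled libraries and reached at most 0.0252 FPKM, which is about 6 fragments or fewer. A difference in Ifi44 was not detectable at this depth, and no ratio is given.

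The pathway lists gave the same kind of count in B16-F10. Of the 3, 1, 19, 8, 7 and 2 tested genes of the IFIT and Isg15 pathway, OAS, further interferon-stimulated, receptor, sensor and interferon gamma lists, 0 rose and 0 fell, where 1.33% of all tested genes rose and 0.899% fell, so these counts do not set the lists apart. Herc6 stood at 7.88 and 8.98 FPKM (limma adjusted p = 0.210), Ifitm2, a membrane protein that blocks viral entry, at 115 and 124 FPKM (limma adjusted p = 0.264), and Jak1 at 28.8 and 34.8 FPKM (limma adjusted p = 0.0596). Jak1 passed as higher after rescaling to 1 common total (limma adjusted p = 0.0475) and with library weights (limma adjusted p = 0.0348). Of the other most abundant genes of these lists, Ube2l6 stood at 3.95 and 4.14 FPKM, Lgals3bp at 32.5 and 33.4 FPKM, Ifnar1 at 26.3 and 26.5 FPKM and Irf3 at 27.3 and 27.1 FPKM. Sting1, the adaptor of DNA sensing, stood at 24.8 and 29.0 FPKM (limma adjusted p = 0.157) and Ifngr2 at 14.2 and 16.1 FPKM (limma adjusted p = 0.112). Two-way spread was present in the sensor list, whose median log2 difference was 0.0038. Its genes Tlr3, at 4.57 and 3.64 FPKM (limma adjusted p = 0.0798), and Cgas, at 2.49 and 1.71 FPKM (limma adjusted p = 0.0887), were lower without passing. Their groups did not overlap, and they were chosen after their values were seen. Among genes named here, the groups of Jak1, Ifngr2 and Parp12, which were higher in knockout-labelled cells, did not overlap either. Of all genes above 0 in any B16-F10 library, 8.08% had groups that did not overlap. Trim25, a ligase that also modifies the RNA sensor, was under the limit over all libraries and passed as lower in 3 of 4 settings that admit it. Its log2 difference was -0.54 (limma adjusted p = 0.0239 with a limit of 0.1 FPKM, 0.0481 without a limit). With the limit on the wild-type mean the limma adjusted p was 0.0287. That setting admits Trim25 only through the control group, at 1.26 FPKM against 0.552 FPKM in knockout-labelled cells, so that pass cannot be read as it stands. Trim25 did not pass without a limit at a pseudocount of 0.1 (limma adjusted p = 0.0641). Its groups did not overlap, and it was chosen after its values were seen. Parp12 and Lgals9, chosen in the same way, passed with library weights, Parp12 as higher (limma adjusted p = 0.0286, and 0.0461 without knockout-labelled library 4) and Lgals9 as lower (limma adjusted p = 0.0369). All 10 interferon genes listed were at 0 in every B16-F10 library.

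Wild-type levels are given side by side for the lines, without a test, because their tables were normalised separately. Isg15 stood at 17.1 FPKM in MC38 and 1.11 FPKM in B16-F10, Rtp4 at 1.61 and 0.132 FPKM, and Ifi44 at 0.711 and 0.00805 FPKM. Bst2 stood at 70.1 and 20.5 FPKM. In the other direction Ifit2 stood at 5.27 and 17.3 FPKM, Rsad2 at 0.430 and 2.92 FPKM, Ifit3 at 0.236 and 1.12 FPKM, and Mx1 at 0.144 and 0.595 FPKM. Ifit1, at 0.443 and 0.404 FPKM, and Usp18, at 0.228 and 0.182 FPKM, were at similar levels. The order of the genes thus differed between the lines, with a Spearman rho of 0.33 over the 10, and Ifit2 was the next most abundant after Bst2 in B16-F10 and stood below both Bst2 and Isg15 in MC38.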

How the data were processed

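The 15 mRNA libraries were made with a stranded polyA kit according to the labels. For each line the authors deposited 1 table of FPKM, a value already scaled for gene length and depth. GRCm39 and DESeq2 are named without versions in the submitters' processing notes. Aligner, counter, annotation and strand setting: not given in the sources used here. Columns were matched to samples by library name, and 0 stayed unmatched. Genes with a mean of at least 1 FPKM over a line entered limma 3.58.1 (R 4.3.3, variance trend) on the log2(FPKM + 1) scale, each line alone, at an adjusted p of 0.05. The test was run on simulated data with independent noise in each library, which does not cover libraries that stand apart in pairs. Alternatives changed pseudocount, limit, scaling, variance model, weights and block, and left out each library. A limit on the wild-type mean, and no limit with a pseudocount of 0.1, were added after seeing the data. The 10 genes and all lists were chosen with earlier results of these data known; per list and line up to 2 highest and 2 lowest called genes are named, or the 2 most abundant. An item withheld from naming is not reported here, though counts keep it. Of the listed symbols 1, Rigi, was matched by an older name. Lengths for the depth estimate, overlaps and shared words came from GENCODE M21 and promoters from RefSeq, both on GRCm38. Within 0.1 of a whole fragment number lay 80.2 to 86.6% of low values, so whole reads were not recovered for nearly all genes and no count model was used. At most 0.0279% of values were identical between replicates of a group. Same-numbered libraries did not deviate together (r of -0.30 to 0.17), so the numbers were not taken as pairs. Figures were drawn with matplotlib 3.10.9.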

Additional observations from a re-analysis of the deposited data

Results flagged for a closer look

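Values stood apart within a group of 4 libraries by Dixon's test at its 95% critical value, which chance passes in about 1 in 20 groups; 33 groups were tested and 2 were marked. Ifit2 in knockout-labelled B16-F10 library 1 stood at 17.2 FPKM, below the other 3 libraries of its group. Ssbp4 in wild-type MC38 library 1 stood at 13.2 FPKM, below the other 3 wild-type libraries.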

How the results depend on the processing

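In MC38 every test of the 10 genes under the alternatives kept its direction and its adjusted p under 0.05, with Ifit2 at 0.34 to 0.46 on the log2 scale (limma adjusted p at most 0.00933) and Ifi44 at 2.67 to 3.68. With a limit of 5 FPKM 4 of 4 tested genes rose, where 24.0% of all tested genes rose and 27.4% fell. Rtp4 reached that limit only through the overexpressing group. With the limit on the wild-type mean 4 of 4 rose, where 22.9% rose and 24% fell. The number was 8 to 9 when single libraries were left out, where 20.3 to 23.7% of all tested genes rose and 19.8 to 23.8% fell. Those runs kept the limit on the mean over both groups, and Usp18 was not tested without overexpressing library 1. In B16-F10 the number that rose or fell was 0 under every alternative and with any single library left out. There 0.0367 to 4.56% of all tested genes rose and 0.0734 to 2.56% fell.

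The count over all tested B16-F10 genes, 243, became 140 with a limit of 0.1 FPKM, 73 with no limit, 52 with no limit and a pseudocount of 0.1, 776 with library weights, and 23 to 414 with single libraries left out. With the replicate block it was 12, against 3906 in place of 5107 in MC38. The cause of these lower counts was not tested. In MC38 no overexpressing library has number 4, so under the block wild-type library 4 does not enter the comparison of groups. The log2 fold change of Bst2, for example, was 0.83 both under the block and without that library. Under that block 9 of 9 tested antiviral genes rose in MC38, where 18.9% of all tested genes rose and 17.4% fell. Since 5 of the 9 reached the limit only through the overexpressing group, that count cannot be read as it stands. In B16-F10 0 of 3 rose or fell, where 0.0367% of all tested genes rose and 0.0734% fell. Ssbp4 in B16-F10 had an adjusted p of 0.0890 in limma under the block.

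The rho of wild-type MC38 level against MC38 change was -0.13, and -0.56 with a pseudocount of 0.1, and -0.13 to -0.0545 with single libraries left out. Against the B16-F10 level it was -0.71 to -0.58 with single libraries left out. For the B16-F10 change it was 0.26 to 0.50 against the MC38 level and -0.15 to 0.13 against the B16-F10 level.

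List counts in MC38 shifted under several alternatives. Before any alternative, 26 of 27 further interferon-stimulated genes rose, where 23.9% of all tested genes rose. It was 27 of 30 with a limit of 0.1 FPKM, where 20.3% rose, and 17 of 18 with a limit of 5 FPKM, where 24.0% rose. Under the replicate block it was 24 of 27, where 18.9% rose. It was 25 of 31 with no limit and a pseudocount of 0.1, where 11.5% rose. With single libraries left out 23 to 26 of these genes rose, where 20.3 to 23.7% of all tested genes rose. Of the receptor list 6 of 10 rose, and 3 of 6 with a limit of 5 FPKM, where 23.9% and 24.0% of all tested genes rose. Irf9 of that list, at 3.40 FPKM in wild-type and 8.85 FPKM in overexpressing cells, reached the 5 FPKM limit only through the overexpressing group. In B16-F10, where no listed gene rose or fell before any alternative, 8 list counts moved and 258 did not. The counts of OAS genes that rose in MC38 were 9 of 9 with no limit, where 11.5% of all tested genes rose, and 1 of 1 with a limit of 5 FPKM. That gene, Oasl2, stood at 3.10 FPKM in wild type and reached the limit only through the overexpressing group, so its count cannot be read as it stands. Wild-type values of Ifit3, Usp18 and Mx1 in MC38, and of Ifi44, Usp18 and Rtp4 in B16-F10, rest on 35 fragments or fewer per library, which limits their precision.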
